A study of Bos taurus with 44 samples.

Results

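IL10 and transforming growth factor beta (TGF beta) are cytokines that restrain immune responses, and 6 genes of this system were followed in blood mononuclear cells of Holstein cows. They were the ligands IL10, TGFB1 and TGFB2 and the receptor chains IL10RA, IL10RB and TGFBR1. The members are the genes whose spots carry 1 of these 6 symbols alone in the platform annotation. They make up 6 of 141 named genes and 48 of 1680 spots, with 8 spots each, all from 1 clone per gene.

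Female Holstein cows were immunized with antigens that promote antibody and cell-mediated responses, and venous blood was taken from all of them 6 days later. Mononuclear cells, mainly lymphocytes and monocytes, were isolated on a Percoll gradient and received no treatment in culture, so that no unimmunized cow and no resting sample enters any comparison. The groups were 3 high-Ab and 3 low-Ab cows, which differed in antibody response, and 3 high-DTH and 3 low-DTH cows, which differed in cell-mediated response. A single cow, called the shared cow, stood in both high groups, which gives 11 cows and 44 arrays, taking same-numbered cows of other groups as different animals. Neither age, nor the antigens, nor the response values behind the grouping were known here.

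Each array held cDNA of 1 cow beside that of an RNA standard, the same for every array and made from the same kind of cells, in the dyes Alexa647 and Alexa555, and each cow was run in both dye orientations. The value used is the log2 ratio, likely cow over standard, averaged over the spots of a gene, over the arrays of each orientation and then over both orientations, which gives 1 value per cow. A ratio of 0 means the same level as in the standard, and no level can be compared between genes. In a mixture of cells, fewer cells of a type and less RNA per cell cannot be told apart. In low-Ab cow 1, arrays 1 and 2 ran against the other arrays (r down to −0.91), as did array 3 in low-DTH cow 3. Their sign is not settled, so these cows' values can cancel. Each comparison was also computed with the 3 arrays turned, and part of those values is given here. Over the 141 genes, arrays of 1 cow with opposite dyes had a mean r of 0.42 over 44 pairs. Markers of T cells (7 measured genes), B cells (4), monocytes (4), natural killer cells (2) and neutrophils (2) were on the array, and none of the platelet or erythroid markers was. Since each value is a ratio to mononuclear cells, the markers show differences between cows but not whether a cell type is present. Of the T cell markers, 6 of 7 were higher in the high-Ab and 7 of 7 in the high-DTH cows, with median differences of 0.41 and 0.33 and none past the test. With the arrays turned these medians were 0.27 and 0.21. The part of the markers in the members' values was not tested.

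IL10 is made by monocytes, macrophages, B cells and several kinds of T cells, and it lowers antigen presentation and inflammatory cytokine output, acting mainly on myeloid cells. It binds IL10RA, the chain specific to IL10, which then pairs with IL10RB, a chain shared with receptors of related cytokines, and signals through STAT3. TGF beta ligands are secreted in a latent form, and once activated they bring a type II receptor together with the type I receptor TGFBR1, a kinase that phosphorylates SMAD proteins. TGF beta limits T cell activation, takes part in forming regulatory T cells and directs B cells towards IgA.

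No difference between high and low responders of either kind was called for any of the 6 genes. The share of features called by limma at an adjusted p under 0.05 was 0% of 562 for Ab and 0% of 565 for DTH, with 37 and 55 features at an unadjusted p under 0.05, and no member was among these. The members divided instead by how much they varied from cow to cow. IL10 and IL10RB had SDs of 0.25 and 0.22 over the 11 cows. TGFBR1, TGFB1 and IL10RA varied little, with SDs of 0.061, 0.067 and 0.074. From the widest to the narrowest SD among the 141 genes, IL10 ranked 36, IL10RB 41, TGFB2 85, IL10RA 123, TGFB1 133 and TGFBR1 138, beside a median SD of 0.15. These SDs are of means over arrays and so include the spread between arrays.

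**Figure D1:**
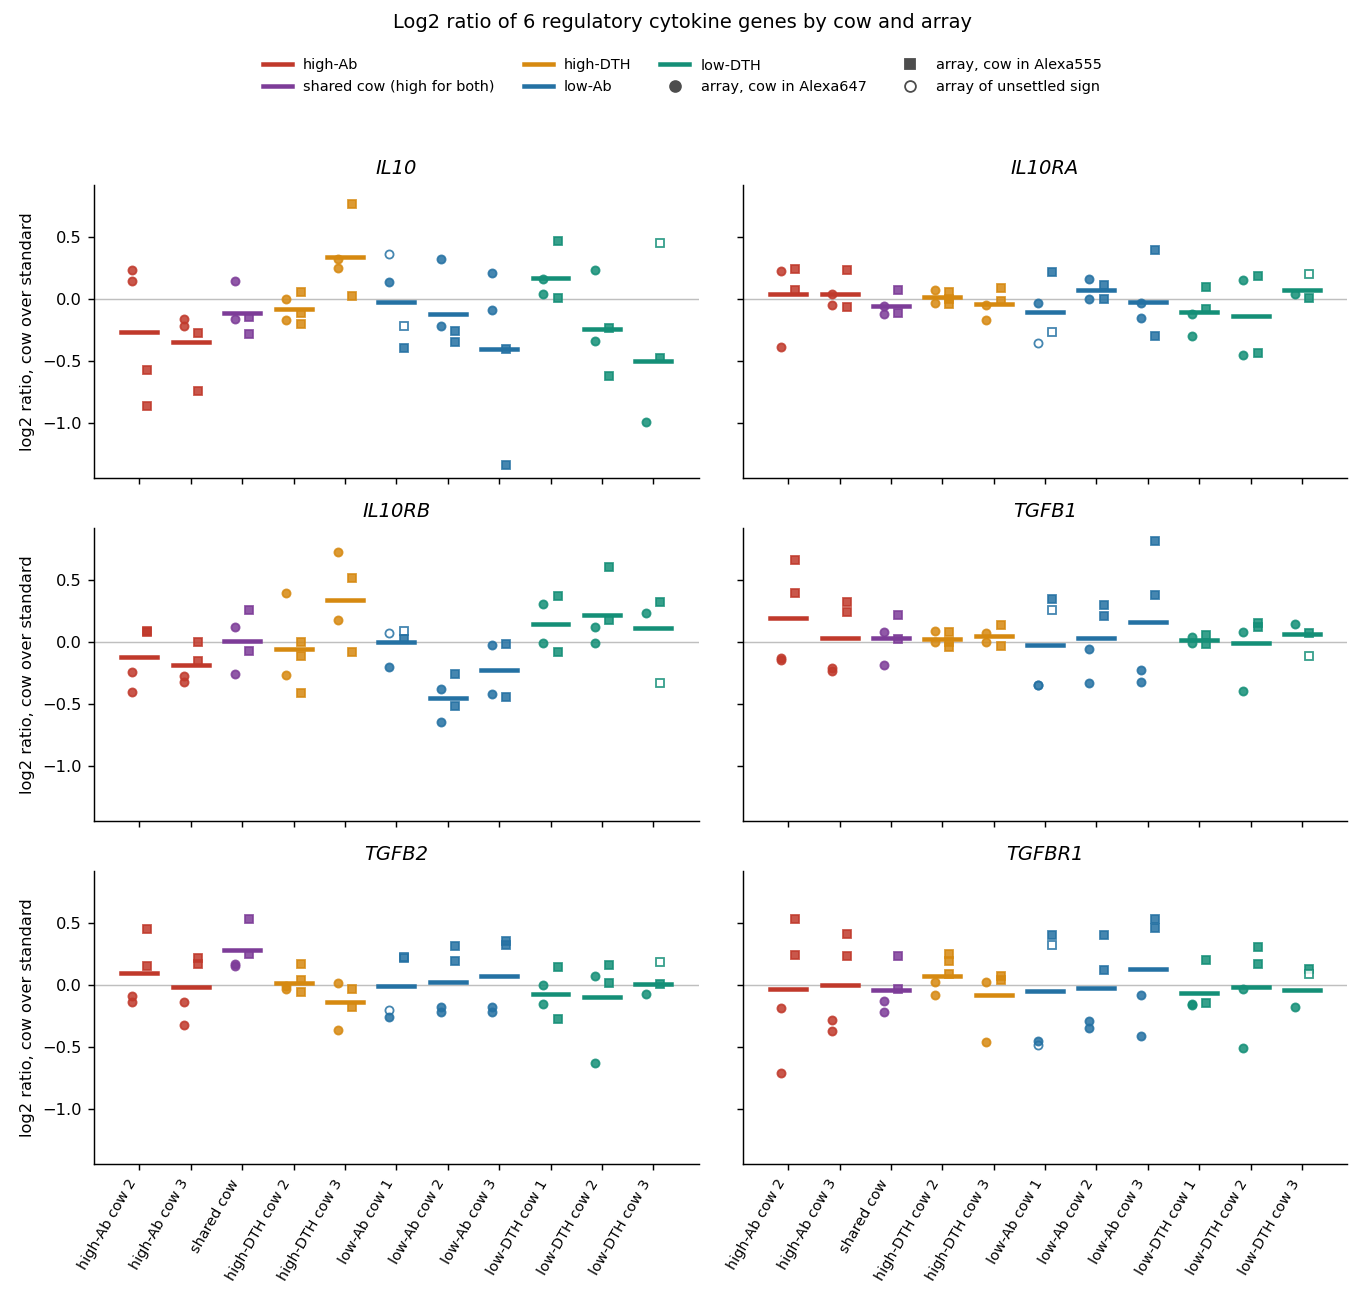
Log2 ratio of the 6 genes (vertical axis) in each of 11 cows (horizontal axis), with 1 panel per gene. Bars are cow values, circles are arrays with the cow in Alexa647, squares are arrays with the cow in Alexa555, and open symbols are the 3 arrays of unsettled sign. The IL10 bars run from −0.50 to 0.34, whereas the TGFBR1 bars stay between −0.08 and 0.13 although its circles and squares lie apart.

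IL10, the ligand of its receptor pair, stood at −0.11 in the shared cow, −0.27 and −0.35 in high-Ab cows 2 and 3, and −0.03, −0.12 and −0.41 in low-Ab cows 1, 2 and 3. Averaged over both dyes, every cow of both Ab groups therefore lay below the standard, and the groups overlapped. In Alexa555 the mean was below 0 in each of these cows. In Alexa647 it was above 0 in high-Ab cow 2 (0.19) and low-Ab cows 1, 2 and 3 (0.25, 0.05 and 0.06). It was below 0 there in the shared cow (−0.0083) and high-Ab cow 3 (−0.19). The high-minus-low Ab difference in log2 ratio was −0.06 ± 0.13 (SE, 3 against 3 cows), with a 95% confidence interval from −0.37 to 0.26 and a limma adjusted p of 0.999. In the other trait, high-DTH cows 2 and 3 had IL10 at −0.08 and 0.34, and low-DTH cows 1, 2 and 3 at 0.17, −0.24 and −0.50. Each DTH group held 1 cow above the standard, and the ranges overlapped again. The DTH difference was 0.24 ± 0.21 (adjusted p = 0.776), with an interval from −0.27 to 0.75, and 0.32 with the 3 arrays turned. The interval is the widest among the 6 genes for this trait and does not exclude a difference of 0.75 in log2 ratio.

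IL10RA, the chain that binds IL10, moved over a narrow range from −0.14 in low-DTH cow 2 to 0.07 in low-DTH cow 3. The Ab difference was 0.03 ± 0.09 and changed sign to −0.07 with the arrays turned, since low-Ab cow 1 went from −0.11 to 0.20. The DTH difference was 0.03 ± 0.09. The limma adjusted p was 0.999 for Ab and 0.920 for DTH, and the intervals reached from −0.20 to 0.26 over both traits.

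IL10RB, the shared signalling chain, had values of 0.01 in the shared cow, −0.12 and −0.19 in high-Ab cows 2 and 3, and −0.0024, −0.45 and −0.22 in low-Ab cows 1, 2 and 3. High-DTH cows 2 and 3 stood at −0.06 and 0.34, and low-DTH cows 1, 2 and 3 at 0.15, 0.22 and 0.11. High and low cows overlapped in both traits, but the 3 low-DTH cows were all above the standard and the 3 low-Ab cows all below it. The high-minus-low difference in log2 ratio was 0.13 ± 0.14 for Ab (limma adjusted p = 0.954) and −0.06 ± 0.13 for DTH (adjusted p = 0.868).

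The gap between the low groups was then measured directly, in a comparison added after the values had been seen. IL10RB averaged −0.22 ± 0.22 (SD, n = 3) in low-Ab and 0.16 ± 0.06 (SD, n = 3) in low-DTH cows. The low-Ab minus low-DTH difference was −0.39 ± 0.14 (SE), with an interval from −0.70 to −0.07 and a limma unadjusted p of 0.0229. It did not pass over all features, with an adjusted p of 0.565, and limma called 0.535% of 561 features, none of them a member. With the 3 arrays turned the difference was −0.47 and the adjusted p 0.0689. It was −0.19 on arrays 1 and 2 alone and −0.49 on arrays 3 to 5, and without low-Ab cow 2, the lowest of the group, it was −0.27 with an adjusted p of 0.980. IL10RB was the only member without overlap between the low groups as deposited, and 13.5% of the named genes had none. With the arrays turned, IL10RA and TGFB2 had no overlap either, both higher in low-Ab cows, and 34 named genes had none. B cell markers were lower in low-Ab than low-DTH cows for 4 of 4 genes, with a median difference of −0.14, and T cell markers for 6 of 7, with a median of −0.09. Monocyte markers were split 2 and 2 with a median of 0.01, neutrophil markers were higher for 2 of 2 with a median of 0.30, and natural killer markers were split 1 and 1 with a median of 0.05. The single gamma delta T cell marker differed by −0.38. Their part in the IL10RB difference was not tested.

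The high groups, compared without the shared cow, gave a pattern of the same direction for IL10RB with only 2 cows on each side. IL10RB averaged −0.15 in high-Ab and 0.14 in high-DTH cows, a difference of −0.29 ± 0.17 (adjusted p = 0.544). IL10 averaged −0.31 and 0.13, a difference of −0.44 ± 0.23 (limma adjusted p = 0.544). High-DTH cow 3 stood at 0.34 in both genes, and high-DTH cow 2 at −0.06 in IL10RB and −0.08 in IL10. With each cow left out in turn, the difference ran from −0.49 to −0.10 for IL10RB and from −0.65 to −0.22 for IL10. Under the other alternatives it ran from −0.57 to −0.01 for IL10RB and from −0.77 to −0.10 for IL10. IL10, IL10RA and IL10RB did not overlap between these pairs of cows, but neither did 48.2% of the named genes, and limma called 0% of 561 features, with 58 at an unadjusted p under 0.05. Beside these values, 3 of 4 monocyte markers were lower in the high-Ab cows, with a median difference of −0.20. Their mean level was between −0.26 and −0.19 there, against −0.16 and −0.01 in the high-DTH cows. Also lower were 5 of 7 T cell markers (median −0.12), 3 of 4 B cell markers (−0.09) and 2 of 2 neutrophil markers (−0.33). Natural killer markers were split 1 and 1 (−0.01), and the gamma delta T cell marker differed by −0.11. The part of any marker in the members' values was not tested.

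TGFB1, the main TGF beta ligand of leukocytes, stood at 0.03 in the shared cow, 0.20 and 0.03 in high-Ab cows 2 and 3, 0.03 and 0.05 in high-DTH cows 2 and 3, −0.02, 0.03 and 0.16 in low-Ab cows 1 to 3, and 0.02, −0.0097 and 0.06 in low-DTH cows 1 to 3. As deposited, high-Ab cow 2 and low-Ab cow 3 stood highest, and they belong to opposite groups of the same trait. Their means were above 0 only in Alexa555 (0.53 and 0.60), and below it in Alexa647 (−0.14 and −0.27). With the arrays turned, low-DTH cow 3 stood at 0.12. The Ab difference was 0.03 ± 0.10 with an interval from −0.21 to 0.27 (limma adjusted p = 0.999). The DTH difference was 0.01 ± 0.08 with an interval from −0.18 to 0.20 (adjusted p = 0.953), and −0.0056 with the arrays turned.

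TGFB2, a second ligand of the same receptors, was highest in the shared cow at 0.28. The other high cows had 0.10 and −0.02 for Ab and 0.02 and −0.14 for DTH, and the low cows lay between −0.09 and 0.07. The shared cow entered both high groups, so its value raised both differences, which were 0.09 ± 0.11 for Ab (limma adjusted p = 0.954) and 0.10 ± 0.13 for DTH (adjusted p = 0.815). Without that cow the differences were 0.0077 and −0.0097.

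TGFBR1, the type I receptor kinase, had values of −0.03 in the shared cow, −0.03 and 0.0022 in high-Ab cows 2 and 3, 0.08 and −0.08 in high-DTH cows 2 and 3, −0.05, −0.03 and 0.13 in low-Ab cows 1 to 3, and −0.06, −0.01 and −0.03 in low-DTH cows 1 to 3. No group stood apart. The Ab difference was −0.04 ± 0.09 with an interval from −0.26 to 0.18 (limma adjusted p = 0.999), and the DTH difference was 0.02 ± 0.08 with an interval from −0.18 to 0.23 (adjusted p = 0.925).

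**Figure D2:**
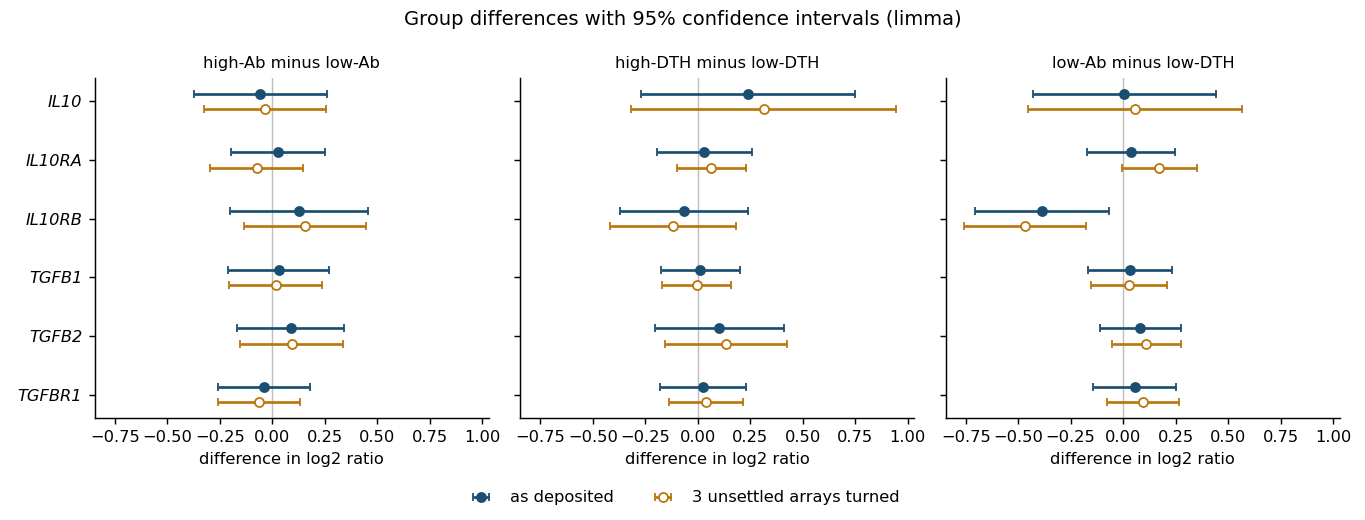
Difference in log2 ratio (horizontal axis) for the 6 genes (vertical axis) between high-Ab and low-Ab, high-DTH and low-DTH, and low-Ab and low-DTH cows, with 95% confidence intervals from limma. Filled points are as deposited and open points have the 3 unsettled arrays turned. The interval leaves out 0 only for IL10RB between the low groups, from −0.70 to −0.07, which does not pass after adjustment.

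Whether the Ab and DTH effects differed was tested in 1 fit of all 11 cows, in which the shared cow cancels. Limma called 7 of 561 features, 1.25%, and 2 of 141 named genes, 1.42%, and no member was among them. The Ab effect minus the DTH effect was −0.30 ± 0.25 for IL10 (adjusted p = 0.835), and the smallest adjusted p of the 6 genes was 0.835. With all 5 high against all 6 low cows, limma called 0% of 561 features, with 20 at an unadjusted p under 0.05. IL10 differed by 0.10 in that comparison, the most of the 6 genes, and every member had an adjusted p of 0.996. All 6 members overlapped between high and low cows, as did all but 2 named genes, 1.42%.

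Few other genes of these pathways were on the array. Of 20 genes listed for IL10 signalling, STAT3 was the only one measured beside the 3 members, with differences of 0.04 ± 0.09 for Ab and 0.02 ± 0.09 for DTH. Of 31 listed TGF beta genes, only the 3 members were measured, so TGFBR2, the type II receptor, and the SMAD genes were not analysed here. CTLA4, IL2RA and CCR4 were the measured regulatory T cell genes beside the members, and none was called for either trait. CCR4, a chemokine receptor of several T cell subsets, had a DTH difference of 0.38 ± 0.11 (limma adjusted p = 0.494) and CTLA4, an inhibitory T cell receptor, one of −0.08 ± 0.09.

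Genes that IL10 is known to lower in myeloid cells, such as inflammatory cytokines and chemokines, had 16 measured members. For Ab, 5 were higher and 11 lower in high cows, with a median difference of −0.02 beside −0.0089 over the 141 genes. For DTH, 11 were higher and 5 lower, with a median of 0.06 beside −0.03. Between the low groups all 16 were higher in low-Ab cows, with a median of 0.20 beside 0.0075 over all 141 genes, of which 75 were higher. Limma called 1 of the 16 there, the inflammatory cytokine IL1B (1.33 ± 0.19, adjusted p = 0.0416), the only called gene among the 141 named ones (0.709%), and 0 features when any low cow was omitted. For the Ab effect minus the DTH effect, 2 of the 16 were called lower, IL1A (−1.44 ± 0.26, adjusted p = 0.0421) and IL1B (−1.63 ± 0.25, adjusted p = 0.0393). They were the only 2 named genes called there, and none was called with the 3 arrays turned. Between the low groups, which are the same cows, IL10 itself differed by 0.0058 ± 0.19, with an interval from −0.43 to 0.44. Its sign changed in 8 of 17 alternatives, whose values ran from −0.58 to 0.44. The list was chosen with these results known, and its genes share those cows, so the counts are descriptions.

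Across the 11 cows the genes most like IL10 were TNFRSF1A, a receptor for tumour necrosis factor, and CD14, the monocyte co-receptor for lipopolysaccharide. Pearson's r was 0.86 for both, Spearman's rho was 0.89 and 0.80, and r was 0.87 and 0.88 with the arrays turned. Without the 2 cows farthest from the median of the partner gene, r was 0.74 and 0.68. CD14 was 0.22 in high-DTH cow 3 and 0.15 in low-DTH cow 1, the cows highest in IL10, and −0.45 in low-DTH cow 3, the cow lowest in IL10. Of the other monocyte markers, TLR4 had r = 0.64 and TLR2 0.31, while FCGR1A had −0.41, and the mean of the 4 had 0.65. The partners were picked as the highest correlations among all named genes, so no p is given, and the points share arrays and a common standard.

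IL10RB was most like TAP2, a subunit of the peptide transporter that loads MHC class I, with r = 0.90, rho = 0.94 and r = 0.89 with the arrays turned. Its value was 0.86 without the 2 cows farthest in TAP2. IRF1, a transcription factor induced by interferon, followed with r = 0.72. TAP2 was 0.01, 0.24 and 0.08 in low-DTH cows 1 to 3 and −0.0057, −0.44 and −0.48 in low-Ab cows 1 to 3. The value of low-Ab cow 1 averages 0.43 on its unsettled arrays 1 and 2 and −0.44 on its other arrays, and was −0.43 with the arrays turned. TAP2 was picked for its likeness to IL10RB over these same cows, so its order in the low groups is not a separate observation.

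For the ligands TGFB1 and TGFB2 the likeness fell when the 2 cows farthest in the partner gene were left out. TGFB1 had r = 0.89 with IL12RB1, a receptor chain for IL12, and 0.86 with IL12B, a subunit of IL12, but 0.25 with each without the 2 farthest cows. TGFB2 had r = 0.76 with BCL2L1, an inhibitor of apoptosis, and 0.053 without them. With IL6 and IL18 TGFB2 had r = 0.76 and 0.74, and 0.48 and 0.39 without such cows. TGFBR1 had r = 0.71 with the chemokine CCL20, and 0.78 without such cows. Its next partners, CXCR4 and CSF2, fell from 0.61 and 0.60 to 0.19 and 0.34. IL10RA had r = 0.79 with IL2, which dropped to 0.51 with the arrays turned. Among the members themselves, r lay between −0.57 and 0.45 over 15 pairs.

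**Figure D3:**
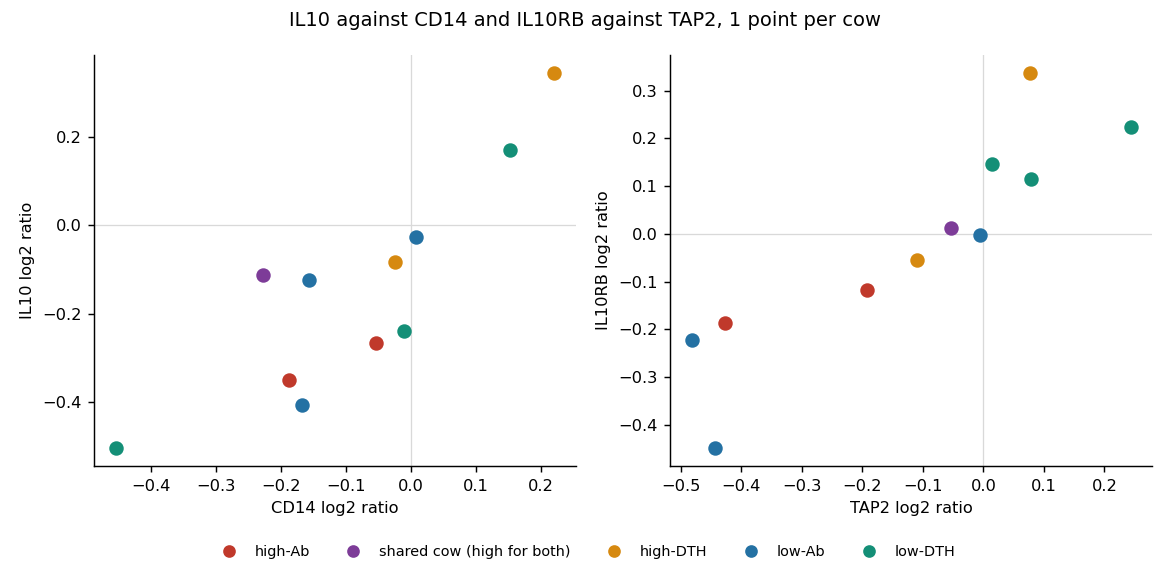
Log2 ratio of IL10 against CD14 (left) and of IL10RB against TAP2 (right), with 1 point per cow coloured by label group. IL10 runs with CD14 at r = 0.86, and in the right panel the low-DTH cows lie to the upper right of the low-Ab cows.

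TGFBR1 varied little over cows but widely over the arrays of 1 cow. The SD between arrays of a cow, as a median over the 11 cows, was 0.35 for TGFBR1. It ranked 9 of 141, beside a median of 0.18 over the named genes. IL10, which also varied over cows, followed at 0.31 (rank 15), then TGFB1 at 0.26 (rank 22), TGFB2 at 0.25 (rank 26), IL10RB at 0.24 (rank 38) and IL10RA at 0.14 (rank 106). The TGFBR1 spread followed the dye. TGFBR1 was below 0 on 19 of 21 arrays with the cow in Alexa647 and above 0 on 21 of 23 arrays with the cow in Alexa555, with means of −0.26 and 0.23. The dye gap of a cow, its mean in Alexa647 minus its mean in Alexa555, was then tested against 0 over the 11 cows, as a comparison added after the values had been seen. Apart from array 5 of high-DTH cow 2 and array 3 of low-DTH cow 3, the odd-numbered arrays were those with the cow in Alexa647, so dye and array number cannot be told apart.

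Limma called 12.1% of 561 features for a dye gap, 4.63% with a gap below 0, and 24.8% of the 141 named genes. Among the members 3 of 6 were called, and these were the 3 TGF beta genes, all with a gap below 0. The TGFBR1 gap was −0.49 ± 0.07 (SE, n = 11, limma adjusted p = 0.00206), below 0 in 11 of 11 cows and at rank 4 by size among the named genes. The TGFB2 gap was −0.29 ± 0.06 (adjusted p = 0.0121), also below 0 in 11 of 11 cows. Both stayed called under all 17 alternatives that were run.

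The TGFB1 gap of −0.31 ± 0.09 (limma adjusted p = 0.0460) was less stable. It was below 0 in 9 of 11 cows and was called in 8 of 17 alternatives. The adjusted p was 0.0615 with the 3 arrays turned, 0.0639 on arrays 3 to 5 alone, 0.0587 without the shared cow, and 0.100 and 0.106 without high-Ab cow 2 or 3. It was 0.110, 0.0949 and 0.0970 without low-Ab cow 1, 2 or 3 and 0.0729 without low-DTH cow 2. The gaps of IL10 (0.22 ± 0.14, adjusted p = 0.287), IL10RA (−0.10 ± 0.04, 0.120) and IL10RB (−0.06 ± 0.07, 0.553) did not pass. Without low-DTH cow 3, whose Alexa647 value is a single array at −0.99, the IL10 gap was 0.34 with an adjusted p of 0.0374.

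The gap was also set side by side for cows of the Ab and the DTH trait, high and low together. In the 5 Ab cows other than the shared cow the TGFB1 gap lay between −0.87 and −0.45, and in the 5 other DTH cows between −0.29 and 0.16. As deposited these ranges did not overlap, and the difference was −0.60 ± 0.12 (limma adjusted p = 0.0170). With the 3 arrays turned the ranges did overlap, at −0.87 to −0.05 in Ab and −0.29 to 0.05 in DTH cows. TGFBR1 and TGFB2 likewise had no overlap as deposited and overlapped with the arrays turned. For TGFB2 the deposited gap lay between −0.54 and −0.41 in Ab and between −0.37 and −0.01 in DTH cows. How many named genes had no overlap in this gap was not counted. The TGFBR1 gap lay between −0.83 and −0.58 in Ab and between −0.51 and −0.18 in DTH cows, a difference of −0.44 ± 0.10 (adjusted p = 0.0331). Over all 141 genes the median absolute gap of a cow was also mostly wider in these Ab cows, between 0.15 and 0.33, than in the DTH cows, between 0.08 and 0.19, and its part in the members' difference was not tested. Limma called 2 of 6 members in this comparison, beside 3.57% of 561 features, 3.03% with a lower gap in Ab cows, and 7.09% of the named genes. Neither call held with the 3 arrays turned, where the adjusted p was 0.173 for TGFB1 and 0.295 for TGFBR1, or on arrays 3 to 5 alone, where it was 0.446 and 0.562.

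The call for TGFB1 was also lost without high-DTH cow 2, low-Ab cow 1 or low-DTH cow 1, with adjusted p-values of 0.0656, 0.0537 and 0.0565. That for TGFBR1 was lost without high-Ab cow 2 (0.0908) or 3 (0.0513), high-DTH cow 2 (0.120) or 3 (0.0814), low-Ab cow 1 (0.105) or 3 (0.0659), or low-DTH cow 1 (0.0943). IL10 had gaps of the opposite sign in the 5 Ab cows, between 0.32 and 0.93, whereas the 5 DTH cows lay between −0.98 and 0.38 with 3 of 5 below 0. The IL10 difference of 0.78 ± 0.23 did not pass (adjusted p = 0.0831), but it did in 3 of 16 alternatives, with the 3 arrays left out (0.0282), after quantile normalization (0.0329) and without low-DTH cow 2 (0.0307). The TGFB2 difference was −0.32 ± 0.09 (adjusted p = 0.0876) and passed in 5 of 16 alternatives. These were the 3 arrays left out (0.0282), arrays 1 and 2 alone (0.0153), quantile normalization (0.0322), spot medians (0.0370) and low-DTH cow 2 omitted (0.0279).

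**Figure D4:**
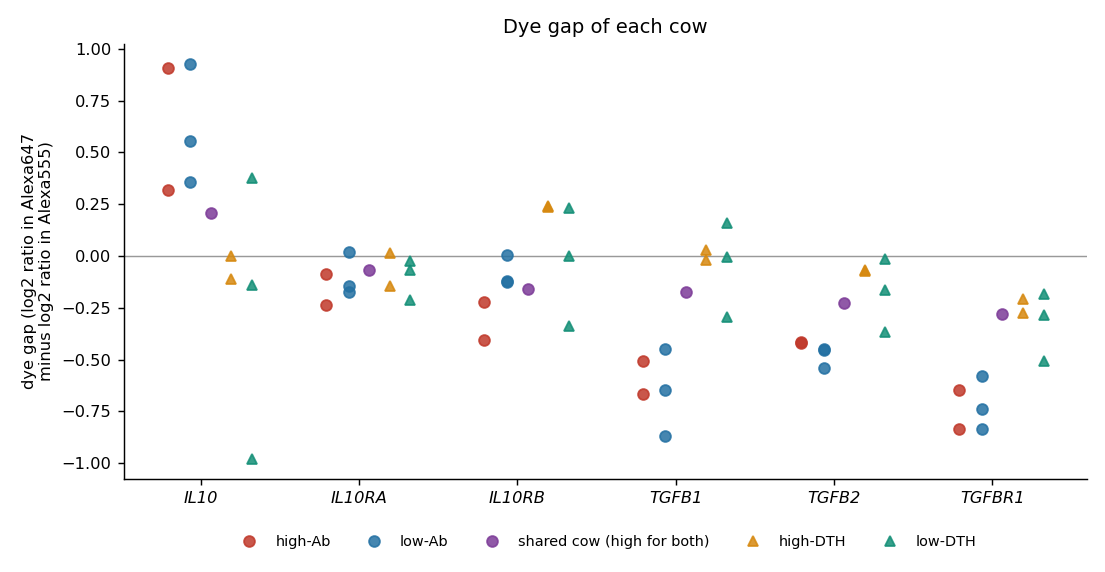
Dye gap in log2 ratio (vertical axis) of the 6 genes (horizontal axis), with 1 point per cow, where circles are the Ab cows and the shared cow and triangles the other DTH cows. Values are as deposited. All 11 points of TGFBR1 and TGFB2 lie below 0. For each of the 3 TGF beta genes the 5 circles of high-Ab and low-Ab cows lie below all 5 triangles, and how many named genes did so was not counted. With the 3 arrays of unsettled sign turned, these ranges overlap for each of the 3 genes.

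The deposited ratios of TGFBR1 and TGFB1 were also read on the arrays of unsettled sign. In low-Ab cow 1 the deposited TGFBR1 ratios on arrays 1 to 4 were −0.48, 0.33, −0.45 and 0.41, and the TGFB1 ratios were −0.34, 0.26, −0.34 and 0.35. For these genes, arrays 1 and 2 as deposited thus had the same signs by dye as arrays 3 and 4, although over all genes they correlated below 0 with them. In low-DTH cow 3, array 3 in Alexa555 had TGFBR1 at 0.09 and TGFB1 at −0.11, beside 0.13 and 0.07 on array 2 in the same dye. Whether the sign of any of these arrays is turned was not tested. Averaging both orientations removes a gap of equal size from a cow's value. The group differences above were in addition computed on each orientation alone, and no member was called there.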

How the data were processed

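The deposited values are 1 log ratio per spot and array. They are read as log2, which the sources used here do not state, nor do they give the direction, background correction or normalization made by the authors. Array medians lay between −0.08 and 0.07. Per the labels' protocols, RNA was amplified in 1 round before labelling. No spot intensities were analysed here, so signal over background is unknown, and precision is limited by how many arrays and cows there were. Per the labels, cows are biological and arrays technical replicates.

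Spots of a gene were averaged, then arrays within each dye orientation, then both orientations. Features missing from either orientation of any cow were dropped, and all 6 members passed. All 6 matched a bovine RefSeq symbol by Entrez identifier, and no sequence was used here. Limma 3.58.1 in R 4.3.3 (lmFit, eBayes) was fitted over all features with Benjamini-Hochberg adjustment. Spots without a single symbol were tested singly, and 16 spots of a bacterial control gene were set aside. The step was checked on simulated data. No exact permutation test was used, since with 3 cows a side its smallest p is 0.1.

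Genes beside the members were named by fixed lists and by the 3 highest correlations per member. Members and lists were chosen with earlier results of these data known. The comparisons of low groups, of high groups and of dye gaps were added after seeing the data. Cow numbers were not used to pair the groups, since they are not stated to pair cows. Same-numbered cows of high and low groups had correlations between −0.59 and −0.08. These were not compared with those of differently numbered cows, so they cannot settle whether cows were paired. Alternatives covered the 3 unsettled arrays, each dye, array subsets, normalization, spot summary, filter, a replicate block and each cow left out.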

Additional observations from a re-analysis of the deposited data

Results flagged for a closer look

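TGFB1 in high-Ab cow 2 was 0.20, far from the other 4 high cows, which lay between 0.03 and 0.05. TGFBR1 in low-Ab cow 3 was 0.13, apart from the other 5 low cows, which lay between −0.06 and −0.01. Chance sets about 1 in 20 groups apart in this way, and the part of either value in a group difference is shown only by leaving the cow out. The dye gap of TGFB1 differed between Ab and DTH cows by −0.60 and that of TGFBR1 by −0.44, each by limma's test of the difference, and neither passed with the 3 unsettled arrays turned.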

How the results depend on the processing

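Under the alternatives the group comparisons of the 6 genes gave 672 values, of which 94 had the opposite sign and 0 were called. As deposited, limma called 0 features for Ab, for DTH, for all cows and between the high groups, 7 for the difference of the Ab and DTH effects, 3 between the low groups, 68 for the dye gap and 20 for its difference between traits. IL10RB between the low groups kept its sign under all 17 alternatives, from −0.50 to −0.19. The dye gap results gave 198 values, of which 2 had the opposite sign. Cow numbers are not stated to pair the groups. With the cow number as a replicate block limma called 0 features for Ab and 0 for DTH, with IL10 at −0.06 and 0.24 as before. The cause of each change was not tested, and no signal over background was available to set a limit of detection.

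With the 3 unsettled arrays left out, limma called 0 for the difference of effects, 1 between the low groups, 123 for the dye gap and 50 for its difference between traits. With these arrays turned, limma called 0 for the difference of effects, 1 between the low groups, 38 for the dye gap and 0 for its difference between traits. On arrays 1 and 2 alone, limma called 0 for the difference of effects, 0 between the low groups and 86 for its difference between traits. On arrays 3 to 5 alone, limma called 0 for the difference of effects, 0 between the low groups, 15 for the dye gap and 0 for its difference between traits. With arrays as units and the array number as a replicate block, limma called 13 for Ab, 15 for the difference of effects, 9 for all cows, 1 between the low groups and 21 between the high groups. In the Alexa555 orientation alone, limma called 0 for the difference of effects and 0 between the low groups. In the Alexa647 orientation alone, limma called 0 for the difference of effects and 1 between the low groups. For named genes only, limma called 2 for the difference of effects and 1 between the low groups. Under a plain mean of arrays, limma called 4 for the difference of effects. After quantile normalization, limma called 0 for the difference of effects, 0 between the low groups, 117 for the dye gap and 66 for its difference between traits.

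The sign changed outside the omission of cows as follows. For the Ab difference, IL10RA changed sign with the 3 arrays left out (−0.038), with them turned (−0.074) and on arrays 3 to 5 (−0.14). IL10RB changed sign on arrays 1 and 2 (−0.075). IL10 changed sign on arrays 3 to 5 (0.059) and in Alexa555 (0.011). TGFB1 changed sign on arrays 3 to 5 (−0.042) and in Alexa555 (−0.073). TGFBR1 changed sign in Alexa647 (0.027). For the DTH difference, TGFB1 changed sign with the 3 arrays left out (−0.0025), with them turned (−0.0056), on arrays 1 and 2 (−0.022) and with spot medians (−0.0017). IL10RA changed sign on arrays 1 and 2 (−0.062) and with spot medians (−0.00016). TGFBR1 changed sign on arrays 1 and 2 (−0.010) and in Alexa555 (−0.011). IL10 changed sign on arrays 3 to 5 (−0.10). IL10RB changed sign on arrays 3 to 5 (0.20) and in Alexa647 (0.0055). For the difference of effects, IL10RA changed sign on arrays 1 and 2 (0.26), with the array number as a block (0.0051), in Alexa555 (0.033), with spot medians (0.028), with plain means (0.0025) and with quantiles (0.0082). TGFB2 changed sign on arrays 1 and 2 (0.038) and in Alexa647 (0.019). IL10 changed sign on arrays 3 to 5 (0.16). TGFB1 changed sign on arrays 3 to 5 (−0.13) and in Alexa555 (−0.090). For all high minus all low cows, IL10RB changed sign on arrays 1 and 2 (−0.16). IL10 changed sign on arrays 3 to 5 (−0.029). IL10RA changed sign on arrays 3 to 5 (−0.0065). TGFB1 changed sign in Alexa555 (−0.015). TGFBR1 changed sign in Alexa647 (0.034) and with quantiles (0.026). For low-Ab minus low-DTH, IL10RA changed sign on arrays 1 and 2 (−0.22). TGFB1 changed sign on arrays 1 and 2 (−0.088), in Alexa647 (−0.27) and with spot medians (−0.023). TGFB2 changed sign on arrays 1 and 2 (−0.021) and in Alexa647 (−0.067). IL10 changed sign on arrays 3 to 5 (−0.58), with the array number as a block (−0.045), in Alexa555 (−0.42) and with plain means (−0.049). TGFBR1 changed sign in Alexa647 (−0.14). For high-Ab minus high-DTH, TGFBR1 changed sign in Alexa555 (0.24). TGFB1 changed sign in Alexa647 (−0.22). TGFB2 changed sign in Alexa647 (−0.073). For the dye gap of Ab minus DTH cows, IL10RA changed sign on arrays 1 and 2 (0.088) and with quantiles (0.014).

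Leaving out each cow in turn, the calls were 0 to 7 for the difference of effects, 26 to 129 for the dye gap, 7 to 51 for its difference between traits, 0 to 1 between the high groups, 0 to 1 for Ab and 0 between the low groups. Where the sign changed under these omissions, the values were as follows. The Ab difference ranged for IL10 −0.17 to 0.022, IL10RA −0.016 to 0.074, TGFB1 −0.024 to 0.083 and TGFBR1 −0.071 to 0.017. The DTH difference ranged for IL10RA −0.011 to 0.094, IL10RB −0.18 to 0.013, TGFB1 −0.0041 to 0.032, TGFB2 −0.0097 to 0.20 and TGFBR1 −0.019 to 0.057. The difference of effects ranged for IL10RA −0.066 to 0.043, TGFB1 −0.037 to 0.070 and TGFB2 −0.11 to 0.053. All high minus all low cows ranged for IL10 −0.014 to 0.17, IL10RB −0.055 to 0.080, TGFB1 −0.0052 to 0.052, TGFB2 −0.0010 to 0.10 and TGFBR1 −0.025 to 0.025. Low-Ab minus low-DTH ranged for IL10 −0.15 to 0.19, IL10RA −0.0084 to 0.10, TGFB1 −0.020 to 0.072 and TGFBR1 −0.00061 to 0.088. High-Ab minus high-DTH ranged for TGFB1 −0.0063 to 0.16 and TGFBR1 −0.088 to 0.064.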
